A study of Drosophila melanogaster with 6 samples.

Results

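Long noncoding RNA (lncRNA) genes make transcripts that carry no long open reading frame. The genes described here are the 150 most abundant of the 1940 lncRNA genes among the 17895 genes in a count table of larval Drosophila melanogaster intestines, chosen by their mean CPM over 6 libraries (counts scaled to the library total). The measured levels of all libraries chose them, so that being abundant is not a result. Several kinds of fly lncRNA recur among them. The roX RNAs are scaffolds of the MSL complex, which coats the single X chromosome of males and raises its transcription. Hsrω (Hsromega) is a nuclear RNA that gathers hnRNP proteins into omega speckles and is induced by heat. Other lncRNA genes are primary transcripts from which microRNAs are cut, and most of the rest have a number in place of a name and no known role.

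The experiment set 3 libraries labelled EcRi against 3 control libraries, each made from whole dissected intestines. EcRi larvae carried Tub-LexA with LexO-spok RNAi, UAS-EcR RNAi, the temperature-sensitive repressor Tub-GAL80ts and Myo1A-GAL4, which drives the EcR hairpin in enterocytes, and control larvae came from the same mothers crossed to males with Tub-LexA and without the GAL4 driver. The titles and a supplement legend name a Myo1A control instead, and which of these the controls were could not be settled. All larvae, including the controls, carried the spok hairpin to remove endogenous ecdysone. Eggs were laid over 8 h, kept at 18 °C for 6 days and shifted to 29 °C for 4 days. The shift was timed to the molt into the last larval stage, and larvae were dissected after those 4 days. The sex of the larvae is not given in the sources used here, nor is the number of intestines in each library, and nothing says whether replicates came from separate cultures, so that p-values measure the spread between these libraries. EcR codes for the ecdysone receptor, and its knockdown was meant to release genes that the receptor silences without hormone.

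The libraries held 200890663 to 246255664 counts, so that 3 counts corresponded to 0.0122 to 0.0149 CPM. From here on CPM values are scaled with TMM factors unless another scale is named. These factors assume that most genes keep their level. The factors were 1.21 to 1.30 in the libraries labelled EcRi and 0.713 to 0.845 in the control libraries, and without them the median log2 fold change (EcRi over control) of all 12193 tested entries was 0.68 in place of 0.03. EcR itself stood at 28.8, 28.7 and 32.0 CPM in the libraries labelled EcRi, against 45.6, 28.3 and 26.6 CPM in control libraries, and it did not pass the test (log2 fold change -0.17, adjusted p = 0.517 by edgeR's quasi-likelihood test, 0.47 without TMM factors and 0.10 without control replicate 1). spok, targeted in all larvae and needed for ecdysone synthesis, was at 31.6, 32.1 and 33.9 CPM in EcRi libraries, against 18.6, 15.4 and 8.66 CPM in control libraries (1.19, adjusted p = 0.00814 by edgeR). Whether reads from the EcR and spok hairpins were counted for these genes was not tested, and whole intestines also hold cells other than enterocytes. The groups overlapped for EcR, so the targeted gene does not check the labels, and the names EcRi and control below are those of the labels.

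Levels of cell type markers differed between the genotypes. For comparison, 30.1% of all tested entries were higher in EcRi and 29.3% lower, and 57.3% and 12.7% without TMM factors. Of 12 enterocyte markers (among them the proteases Jon65Aiv and alphaTry) 8 were lower and 0 higher, and their summed level was 8790 to 14768 CPM in EcRi libraries against 55251 to 100663 CPM in control libraries. Jon65Aiv made up much of that sum, and the enterocyte markers Myo31DF (661 against 688 CPM), Amy-p (678 against 490 CPM) and Mal-A1 (816 against 777 CPM) did not pass the test. Of 11 muscle markers 9 were lower and 1 higher (1440 to 1671 against 3494 to 4101 CPM), and of 10 tracheal markers 8 were higher and 0 lower (858 to 994 against 136 to 194 CPM). Much of the tracheal sum came from verm (281 against 38.7 CPM) and serp (363 against 39.8 CPM). The tracheal markers btl (5.02 against 4.42 CPM) and dysf (0.751 against 0.897 CPM) did not pass the test. Of 7 progenitor markers 5 were higher, with sums of 78.4 to 97.6 CPM in EcRi libraries and 44.9 to 61.9 CPM in control libraries. Fat body markers were uneven between libraries (265 to 1203 against 64.6 to 865 CPM, 3 of 10 higher and 1 lower). Enteroendocrine markers summed to 265 to 299 against 258 to 298 CPM (1 of 10 higher, 3 lower), and haemocyte markers to 56.2 to 92.2 against 52.0 to 82.9 CPM (0 of 8 past the test). Tubule markers summed to 1342 to 1570 against 759 to 946 CPM (2 of 6 higher, 4 lower) and neuronal markers to 202 to 215 against 151.9 to 166 CPM (1 of 7 higher, 1 lower). No marker of these 9 types was at 0 in all libraries. Salivary gland and germline markers were mostly too low to test (3 of 8 and 4 of 8 tested, of which 2 and 3 were higher), with sums of 81.5 to 84.2 against 40.6 to 49.7 CPM, nearly all from fkh, and of 0.863 to 0.936 against 0.348 to 0.474 CPM. Without TMM factors 6 enterocyte, 7 muscle, 3 tubule and 0 enteroendocrine markers were lower, and 5 enteroendocrine, 5 haemocyte and 5 neuronal markers were higher. In bulk RNA, fewer cells of a type and less RNA per cell cannot be told apart, and the part of these shifts in the lncRNA values below was not tested.

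The 150 genes held 97.1% of all lncRNA counts. They took 0.159% to 0.201% of all counts in EcRi libraries and 0.0717% to 0.10% in control libraries, and the largest share was that of CR42862 (0.10% to 0.142% against 0.0289% to 0.0443%). In the CPM of the ranking, scaled to library totals and not with TMM factors, levels fell off steeply. On that scale 11 genes averaged at least 10 CPM, 73 at least 1 CPM and the other 77 less than that, with a median of 0.972 CPM. On the same scale the last gene inside the limit, CR43900, averaged 0.281 CPM and the gene before it, CR44784, 0.283 CPM. The first genes outside, CR44889 and CR43642, both averaged 0.280 CPM. Exon lengths ran from 201 to 21710 bases (median 1012), and 67 genes had 1 distinct annotated exon over all their transcripts. Exons that overlap but differ in extent were counted separately. Per kilobase of exon and with TMM factors, CR42862 had 172 CPM in EcRi libraries and 85.5 CPM in control libraries. CR44138, which led in control, had 62.6 against 121 CPM. By the mean level per kilobase CR34335, CR32368, CR40469 and roX1 came next, the last with 1.42 against 39.4 CPM per kilobase.

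To ask which lncRNA genes differed between the genotypes, all entries were tested together and the 150 genes were read from that fit. All but 1 passed the filter on low counts, and of those 93 passed the test (62.4%), against 59.5% of all tested entries, 63.2% of protein-coding genes and 43.4% of the 265 less abundant lncRNA genes tested. The share that changed was thus near the background. By direction, 59 were higher in EcRi (39.6%, against 30.1% of all entries, 31.6% of protein-coding genes and 27.5% of less abundant lncRNA genes) and 34 were lower (22.8%, against 29.3%, 31.6% and 15.8% of the same sets). Changes beyond 2-fold were called for 48 genes upwards (32.2%, against 16.7% of all entries) and 20 downwards (13.4%, against 14.5%). The median log2 fold change was 0.27 over the members and 0.03 over all entries. Without TMM factors the calls were 93 higher (62.4%) and 13 lower (8.72%), against 6982 higher (57.3%) and 1546 lower (12.7%) over all entries. Increases then made up 87.7% of the members' calls in place of 63.4%, and 81.9% of all calls in place of 50.7%. All 59 increases were also called in that scaling, but only 13 of the 34 decreases.

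The ranking by a mean over all libraries bears on these counts, since a gene high in 1 genotype alone can enter through it. By CPM scaled to library totals, 100 genes reached the limit in both genotypes. Of these, 23 rose and 30 fell in EcRi (median log2 fold change -0.11), against 50 and 10 without TMM factors (median 0.55). The limit was reached only in EcRi by 46 genes (36 of 45 tested higher, 0 lower) and only in control by 4 genes, all lower. A ranking on control libraries alone would have kept 119 of the 150 genes and a ranking on EcRi libraries alone 141. The libraries of the genotypes did not overlap for 107 of the tested members (71.8%), against 68.3% of all tested entries. Replicates of a gene had a median coefficient of variation of 15.7% in EcRi and 18.6% in control, with values over 50% for 2 genes in EcRi and 12 in control.

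**Figure D1:**
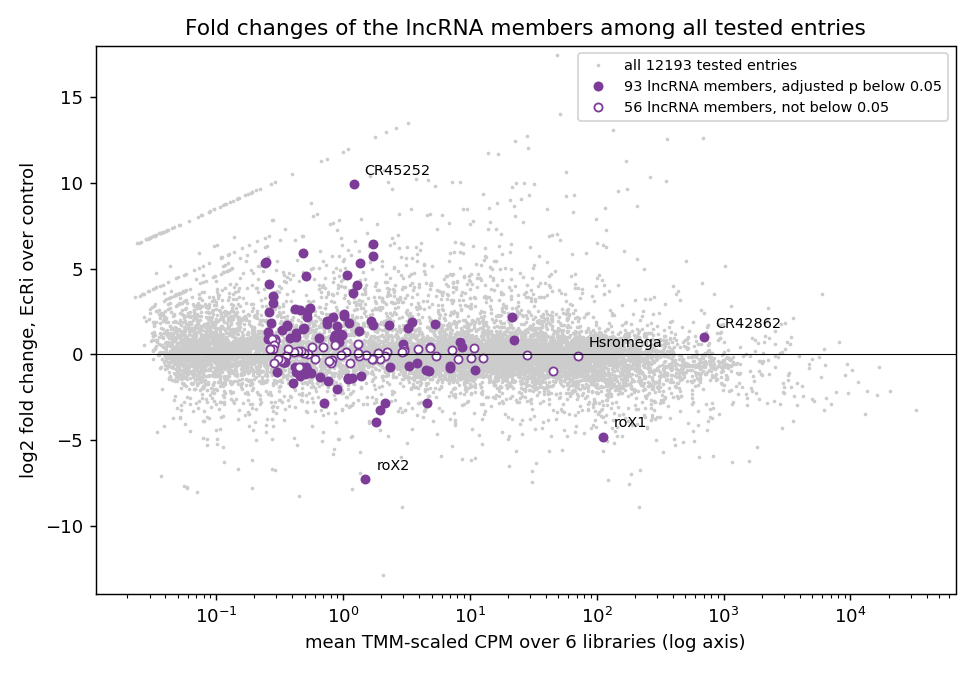
Log2 fold change, EcRi over control, against the mean TMM-scaled CPM over 6 libraries (log axis) for all 12193 tested entries (grey) and the tested lncRNA members (purple, filled where the adjusted p is below 0.05). Members lie on both sides of 0, with CR45252 at the top (9.96) and roX2 at the bottom (-7.27).

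The roX RNAs fell furthest of all members. roX1 (chromosome X, 3857230 to 3862697, minus strand, dm6 coordinates here and below) was at 7.04, 7.75 and 8.51 CPM in EcRi libraries, against 187, 232 and 228 CPM in control libraries. It was the second most abundant member, and its groups lay far apart (log2 fold change -4.79, SE 0.14, adjusted p = 5.76e-07 by edgeR). roX2 (chromosome X, 11579065 to 11580432, plus strand) had 4, 10 and 2 counts in EcRi libraries, against 445, 585 and 538 counts in control libraries, which is 0.0164, 0.0323 and 0.00697 against 2.24, 3.34 and 3.41 CPM. Its log2 fold change was -7.27 (SE 0.45, adjusted p = 1.2e-05 by edgeR), and the summed counts gave a level 155-fold higher in control (95% exact interval 95.1 to 272, counting error only). The direction of both held without TMM factors (-4.14 and -6.62).

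Genes beside the roX genes did not fall with them. The exons of roX1 overlap those of ec on the opposite strand, and ec, which acts in cell death in the eye, averaged 12.5 ± 1.59 CPM in EcRi and 2.34 ± 0.682 CPM in control (SD, n = 3 each, log2 fold change 2.42, adjusted p = 7.01e-05 by edgeR). An oligopeptide transporter gene, yin, lay 269 bp from roX1 on the same strand and was also higher (1.92). CG11695, 259 bp from roX2, was higher by 0.71. Over the X chromosome, 7 of 31 members were higher and 10 lower (median -0.19), against 530 and 591 of all 1830 tested X-linked genes (median -0.01, and 0.02 to 0.06 for genes on each arm of the large autosomes). Without TMM factors 16 X-linked members were higher and 3 lower (median 0.46), and the median of all X-linked genes was 0.64.

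The protein partners of the roX RNAs moved less. msl-2, the subunit whose protein is made in males, averaged 6.66 ± 1.21 CPM in EcRi and 14.0 ± 1.0 CPM in control (SD, n = 3 each), a fall of 1.08 on the log2 scale (adjusted p = 0.0004 by edgeR, -0.42 without TMM factors). The chromodomain subunit msl-3 (0.34), the helicase mle that remodels roX RNA (0.24) and the adaptor Clamp (0.26) were slightly higher. For msl-1 and the acetyltransferase mof the test was not passed, so that 3 of 6 were higher and 1 lower, against 5 and 1 without TMM factors. Of all tested entries 30.1% were higher and 29.3% lower, and 57.3% and 12.7% without TMM factors. Genes of the sex determination pathway, looked up after the roX values were seen, differed as well. Sxl, the female switch gene, was higher (log2 fold change 0.80), as was its target tra (0.73). At the end of the pathway, dsx was lower (-1.96, and -1.30 without TMM factors). Counts per gene do not separate splice forms, and the sex of the larvae was not tested with these genes.

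Reads from the Y chromosome were also looked up after the roX values were seen. The 113 annotated Y-linked genes, of which 18 had any count, summed to 88, 125 and 80 counts in EcRi libraries, against 342, 262 and 183 counts in control libraries. The Y-linked gene FDY had 5, 2 and 1 counts against 56, 16 and 7, and CR41509 had 1, 14 and 0 against 111, 103 and 74. CR41506 had 63, 76 and 61 counts against 80, 100 and 63 and overlapped between the genotypes. These sums are small beside the depth and were not tested. The sources used here name no selection of larvae by sex, so that the sex make-up of the pools and the genotype cannot be told apart for the roX RNAs.

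**Figure D2:**
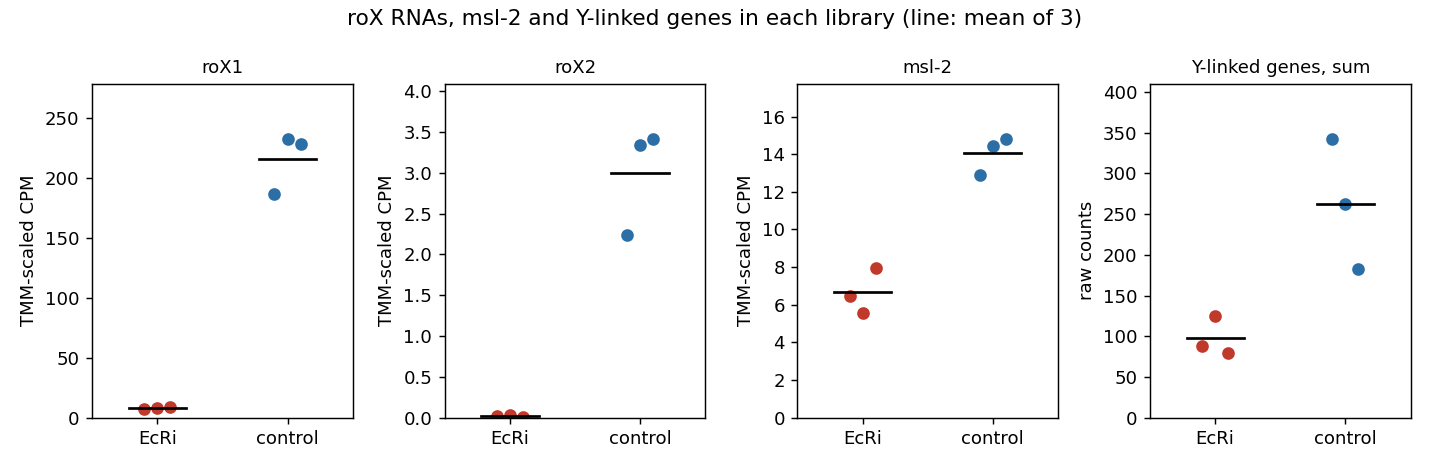
roX1, roX2 and msl-2 in TMM-scaled CPM and the summed raw counts of Y-linked genes, by library (points, EcRi left and control right) with the mean of 3 libraries (line). In each panel all EcRi libraries lie below all control libraries, and for roX2 the EcRi libraries are near 0.

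Hsrω did not pass the test. Hsromega (chromosome 3R, 21296127 to 21317836, plus strand), the member with the longest summed exons, was at 63.2, 68.8 and 73.7 CPM in EcRi libraries, against 78.0, 66.2 and 75.1 CPM in control libraries. The groups overlapped (log2 fold change -0.09, SE 0.10, adjusted p = 0.451 by edgeR), but without TMM factors the sign turned and the call with it (0.57, adjusted p = 0.00405). Heat shock genes were mostly higher, as 7 of 9 tested were higher (median 2.48 on the log2 scale, 0 lower), and 9 of 9 without TMM factors. Among all tested entries 30.1% were higher and 29.3% lower, and 57.3% and 12.7% without TMM factors. The chaperone Hsp83 averaged 432 CPM in EcRi and 45.5 CPM in control (3.25), and Hsp68 64.3 against 6.41 CPM (3.33), whereas the heat shock factor gene Hsf did not pass the test (0.08). Of 10 genes for omega speckle proteins, 2 were higher (Hrb98DE 0.50, TBPH 0.24) and 3 lower (Hrb87F -0.60, sqd -0.63, caz -0.73), against 7 higher and 0 lower without TMM factors. The nearest gene, aus, 464 bp away on the other strand, was higher in EcRi (1.36).

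The other members with names of their own were mimi and noe. mimi (chromosome 3R, 23983503 to 23985065), which also holds mir-9381, was at 2.42, 2.65 and 2.52 CPM in EcRi libraries, against 3.78, 4.72 and 3.74 CPM in control libraries. It was lower by 0.69 on the log2 scale (log2 fold change -0.69, adjusted p = 0.00376 by edgeR), and this call rested on the scaling, since the value without TMM factors was -0.04 (adjusted p = 0.852). CG13603, 148 bp away on the other strand, was higher (1.0). noe (chromosome 3L, 17400272 to 17401348) was at 0.838, 0.920 and 0.909 CPM in EcRi libraries, against 0.146, 0.143 and 0.190 CPM in control libraries. It rose by 2.48 (adjusted p = 6.71e-05 by edgeR), and blot, a transporter gene that surrounds it on the same strand, rose by 1.86 (54.9 ± 4.29 against 15.2 ± 1.42 CPM, SD, n = 3 each). Whether reads of unspliced blot RNA were counted for noe was not tested.

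Abundant members without a name did not share a direction. CR42862 (chromosome 3L, 224106 to 230964, plus strand) was at 951, 795 and 1091 CPM in EcRi libraries, against 528, 474 and 405 CPM in control libraries. The groups were apart (1.01, SE 0.16, adjusted p = 0.00104 by edgeR), and it weighed on the members' summed level. With it they had 1262 to 1548 CPM in EcRi libraries and 1006 to 1184 CPM in control libraries, and without it 456 to 466 against 601 to 710 CPM (552 to 592 against 428 to 600 CPM by library totals, which overlap). Without the 5 most abundant members the sums were 314 to 340 CPM in EcRi libraries and 243 to 276 CPM in control libraries, so that the order of the sums depended on a few genes. Its exons overlap those of CG33229 on the same strand, which was higher too (1.10), and reads could not be divided between them. CG42846, which lies 7 bp away on the other strand, was lower (-1.81).

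CR44138 and CR34335 overlapped between the genotypes. CR44138 (chromosome 3R, 13376903 to 13377395), which lies in an intron of CG9813 on the other strand, had 39.7, 15.7 and 37.1 CPM in EcRi libraries against 48.5, 103 and 28.1 CPM in control libraries (-0.95, adjusted p = 0.222 by edgeR, -0.35 without TMM factors). That value was -0.32 without control replicate 2 and -0.64 without EcRi replicate 2. CG9813 was lower (-1.30). CR34335 (chromosome X, 3545750 to 3546110), in an intron of the cell adhesion gene DIP-alpha, was at 26.6, 33.9 and 23.3 CPM against 26.4, 34.5 and 26.2 CPM (-0.05, adjusted p = 0.803 by edgeR, 0.59 without TMM factors). CR32368 (chromosome 3L, 7915437 to 7915846) had 38.6, 40.7 and 25.8 CPM in EcRi libraries and 4.46, 14.2 and 4.41 CPM in control libraries. The groups were apart and the gene rose by 2.19 (adjusted p = 0.018 by edgeR), a call that was lost with no filter on low counts (0.0554) and without EcRi replicate 1 (0.0688) or replicate 2 (0.0706). Tmem43, 317 bp away, was lower by 0.39 on the log2 scale, but stood at 0.27 without TMM factors.

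Among the members past the test whose libraries did not overlap, the 8 largest increases were at 0.111 CPM or less in every control library. All 8 therefore became members through their EcRi levels alone. Among the 100 members that reached the limit in both genotypes, the largest log2 fold change was 2.22. CR45252 (chromosome 2R, 24975377 to 24975887, plus strand) had 501, 675 and 877 counts in EcRi libraries, against 0, 0 and 1 counts in control libraries. The summed counts gave a ratio of 1298 (95% exact interval 233 to 51302, counting error only), and the gene passed the test (adjusted p = 7.22e-06 by edgeR). Its neighbour CG2736, 36 bp away on the other strand, averaged 13.9 ± 4.36 CPM in EcRi and 0.564 ± 0.247 CPM in control (SD, n = 3 each, log2 fold change 4.61). CR43166 (chromosome 3R, 24825791 to 24826471) had 952, 868 and 1009 counts in EcRi libraries and 10, 11 and 0 counts in control libraries (6.43, adjusted p = 0.000199 by edgeR). The kinase gene niki, 143 bp from it, was also higher (1.95).

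CR44282 (chromosome 2R, 24334785 to 24335976) lay 478 bp from slbo, the fly C/EBP transcription factor, on the same strand. It was at 0.752, 0.968 and 1.12 CPM in EcRi libraries, against 0, 0.0114 and 0.0380 CPM in control libraries, and rose by 5.90 (adjusted p = 0.000217 by edgeR). slbo was at 14.7 ± 0.765 CPM in EcRi and 0.237 ± 0.0915 CPM in control (5.96, SD, n = 3 each). CR44522 (chromosome 3L, 6263008 to 6263399) was at 2.70, 3.96 and 3.49 CPM in EcRi libraries, against 0.0554, 0.0971 and 0.0380 CPM in control libraries (5.72, adjusted p = 1.11e-05 by edgeR). Ldh, lactate dehydrogenase, lies 314 bp from it on the same strand and averaged 169 CPM in EcRi and 64.7 CPM in control (1.38).

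CR44478 (chromosome 2L, 18145098 to 18145499) lies within Socs36E, a feedback inhibitor of JAK/STAT signalling, on the other strand. It was at 1.83, 2.55 and 1.87 CPM in EcRi libraries, against 0.0806, 0.108 and 0.0634 CPM in control libraries (4.62, adjusted p = 1.17e-05 by edgeR). Socs36E itself was higher by 3.25, at 478 ± 123 CPM in EcRi and 50.3 ± 23.9 CPM in control (SD, n = 3 each). CR44676 (chromosome 3L, 19560820 to 19561190) was at 0.353, 0.591 and 0.495 CPM in EcRi libraries, against 0.0101, 0.0114 and 0.0127 CPM in control libraries (5.34, adjusted p = 2.57e-05 by edgeR). It lay 1446 bp from another member, CR45916, which holds mir-9a and was also higher (3.42).

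For the remaining large increases, no neighbour examined here rose past the test with TMM factors. CR44868 (chromosome 2L, 15912558 to 15913109), within beat-Ib on the other strand, was at 0.509, 0.610 and 0.331 CPM in EcRi libraries, against 0.0302, 0 and 0 CPM in control libraries (5.38, adjusted p = 0.000966 by edgeR). beat-Ib did not pass the test (0.56), though it did without TMM factors (1.23). CR44451 (chromosome 2R, 9214095 to 9215145) was at 2.44, 3.12 and 2.40 CPM in EcRi libraries, against 0.111, 0.0343 and 0.0444 CPM in control libraries (5.35, adjusted p = 3.18e-05 by edgeR). The nearest gene tested, VhaAC45, an accessory subunit of the V-ATPase 4321 bp away, was lower (-0.98).

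**Figure D3:**
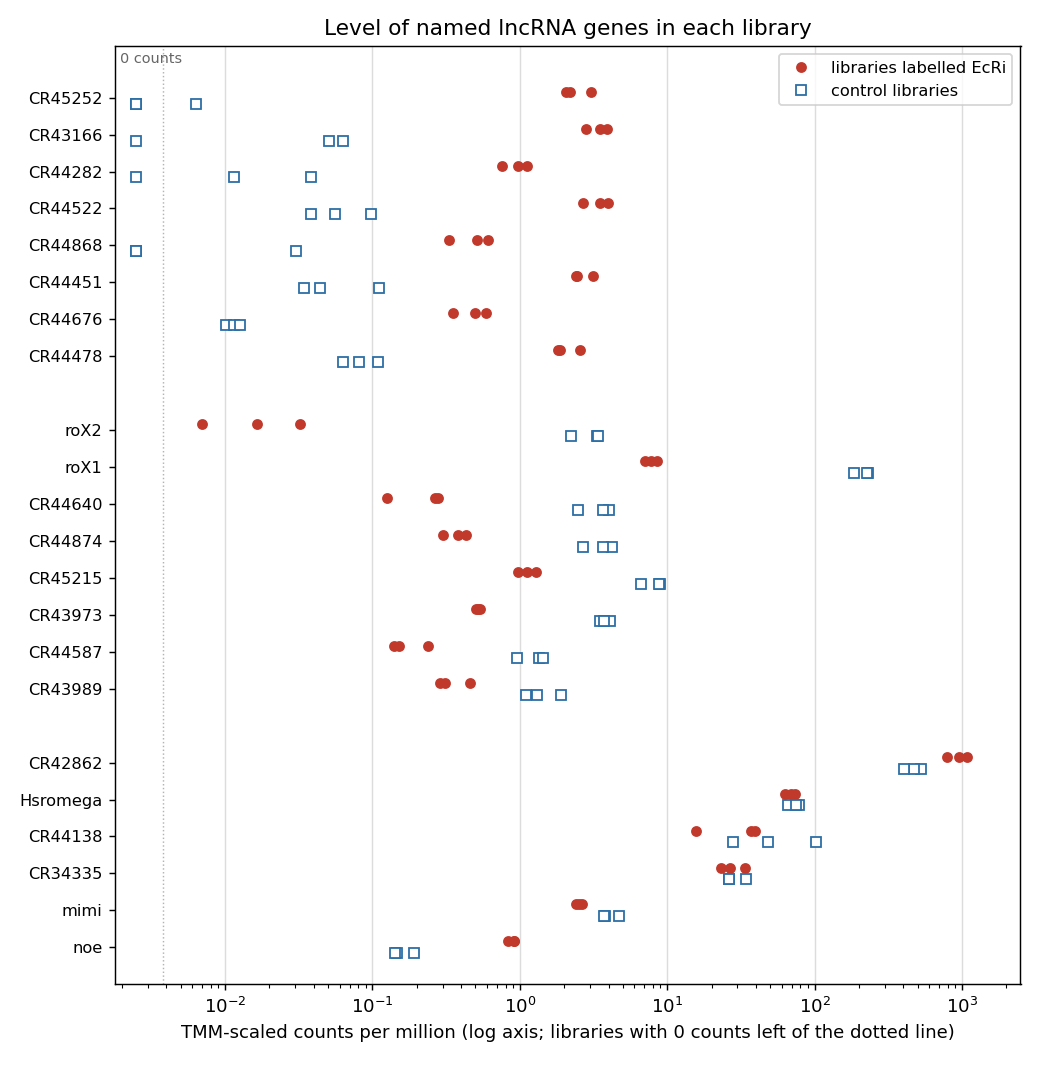
TMM-scaled CPM (log axis) of the 8 largest increases, the 8 largest decreases and 6 abundant or named lncRNA genes in each EcRi library (filled red circles) and control library (open blue squares), with libraries of 0 counts left of the dotted line. The genotypes are apart in the upper 2 blocks, by the rule that chose those genes, and overlap for Hsromega, CR44138 and CR34335 in the lowest block.

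Behind the roX RNAs, 6 further members made up the 8 largest decreases. Of these 8, roX2 and CR44587 became members through their control levels alone. CR44640 (chromosome 2R, 20302195 to 20302995) was at 0.267, 0.126 and 0.279 CPM in EcRi libraries, against 4.04, 3.69 and 2.46 CPM in control libraries (-3.93, adjusted p = 7.16e-05 by edgeR). The lncRNA gene CR44641, 200 bp away on the same strand, was lower too (-2.76). CR44874 (chromosome 2L, 10051362 to 10052289) was at 0.378, 0.303 and 0.428 CPM in EcRi libraries, against 4.23, 3.66 and 2.68 CPM in control libraries (-3.25, adjusted p = 2.45e-05 by edgeR). CG33301, 161 bp from it on the same strand, was at 6.22 ± 3.02 CPM in EcRi and 151.5 ± 14.2 CPM in control (SD, n = 3 each, -4.61).

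CR45215 (chromosome 3R, 8316984 to 8318006) was at 1.29, 0.968 and 1.12 CPM in EcRi libraries, against 8.98, 8.75 and 6.67 CPM in control libraries (-2.86, adjusted p = 1.12e-05 by edgeR). Its exons overlap those of Ctr1B, a copper importer, on the same strand, and Ctr1B was lower (-4.53). Reads could not be divided between that pair, but Coq2, a ubiquinone synthesis gene 441 bp away, was lower as well (-1.09). CR44587 (chromosome 2L, 12024056 to 12025202) was at 0.140, 0.152 and 0.237 CPM in EcRi libraries, against 1.34, 0.959 and 1.44 CPM in control libraries (-2.82, adjusted p = 0.000129 by edgeR). The glutamate transporter gene dmGlut, 2236 bp from it, averaged 105 CPM in EcRi and 582 CPM in control (-2.47).

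The other decreases lay in genes that did not fall with them. CR43973 (chromosome 3L, 15098534 to 15099502) was at 0.505, 0.536 and 0.519 CPM in EcRi libraries, against 3.49, 4.07 and 3.74 CPM in control libraries (-2.85, adjusted p = 6.73e-06 by edgeR). It lies within Ctps, CTP synthase, on the other strand, which did not pass the test (-0.04, and 0.61 with a call without TMM factors). CR43989 (chromosome 3L, 11163849 to 11164801) was at 0.460, 0.313 and 0.286 CPM in EcRi libraries, against 1.31, 1.90 and 1.10 CPM in control libraries (-2.02, adjusted p = 0.000682 by edgeR). Its exon overlaps IRSp53 on the other strand, which was higher (1.21), whereas Alg10, a gene of N-glycan assembly 170 bp away, was lower (-1.53). The 6 decreases of unnamed members kept their call without TMM factors.

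Primary transcripts of microRNAs did not share a direction. A microRNA gene lay on the same strand within 12 members, of which 2 were higher and 2 lower (median log2 fold change -0.01, and 6 higher and 1 lower without TMM factors, median 0.64). The shares of all tested entries were 30.1% higher and 29.3% lower, and 57.3% and 12.7% without TMM factors. CR45916, which holds mir-9a, was at 0.431, 0.639 and 0.463 CPM in EcRi libraries, against 0.0353, 0.0571 and 0.0507 CPM in control libraries (3.42, adjusted p = 8.47e-05 by edgeR). CR43334, which holds the growth regulator bantam (mir-ban), was at 0.534, 0.704 and 0.578 CPM against 0.287, 0.291 and 0.184 CPM (1.25, adjusted p = 0.00483 by edgeR). In both, the EcRi libraries were all higher. Shal, a potassium channel gene 318 bp from CR45916, did not pass the test (0.01).

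CR45345, which holds mir-375, was at 0.637, 0.513 and 0.617 CPM in EcRi libraries, against 1.63, 1.57 and 1.68 CPM in control libraries (-1.46, adjusted p = 0.000271 by edgeR). CG13950, 118 bp from it on the same strand, was lower too (-1.89). The other host that fell was mimi. CR43650, which holds mir-8, a regulator of growth in flies, did not pass the test (-0.44, adjusted p = 0.266 by edgeR), nor did CR43459 with mir-277 and mir-34 (0.07), CR31044 with mir-279 and mir-996 (0.17) or CR42651 with mir-10 (-0.49). The microRNA entries themselves had 0 counts in all libraries, so that mature microRNAs were not measured. CR42491, a host of the snoRNA Psi18S-531, was lower with TMM factors (-0.89, adjusted p = 0.000928 by edgeR). Scaled to library totals its groups overlapped, as did its raw counts (1792, 2537 and 2198 in EcRi libraries against 2463, 3044 and 2088 in control libraries).

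**Figure D4:**
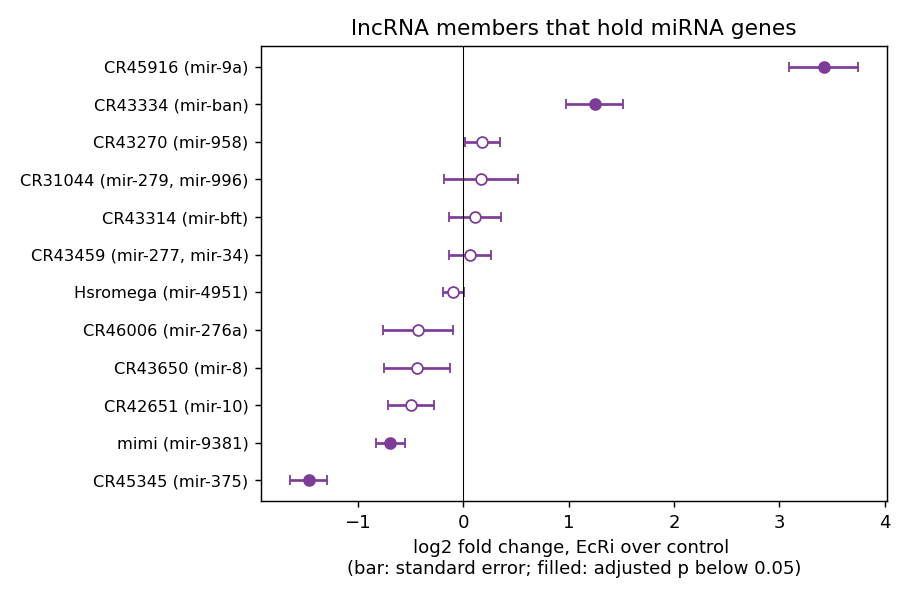
Log2 fold change, EcRi over control, with its standard error for the 12 members that hold microRNA genes on the same strand (filled where the adjusted p is below 0.05). CR45916 (mir-9a) and CR43334 (bantam) lie to the right of 0, CR45345 (mir-375) and mimi to the left, and the other 8 members did not pass the test.

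Neighbouring genes were examined for every member. Of the 150, 74 overlapped no annotated gene, 41 shared exon bases with another gene (26 on the same strand and 15 on the opposite strand), 31 lay within or around a gene on the opposite strand and 4 on the same strand. Members without overlap counted 35 higher and 15 lower of 73 tested, and those with exon overlap on the same strand 6 and 6 of 26 (50 and 6, and 15 and 3, without TMM factors). Members with 1 distinct annotated exon counted 33 higher and 15 lower of 67, against 26 and 19 of 82 with more (44 and 6, and 49 and 7, without TMM factors). The 82 are not all spliced genes, since the 2 annotated exons of mimi, for example, together cover its whole length. Over all tested entries the shares were 30.1% higher and 29.3% lower, and 57.3% and 12.7% without TMM factors. The strand setting of the counting is not given in the sources used here, so that reads from overlapping genes on opposite strands may have been mixed.

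Fold changes of members and their nearest tested gene without overlap had a Pearson r of 0.48 and a Spearman rho of 0.45 over all tested members, and over 10511 protein-coding genes with their nearest gene r was 0.37 and rho 0.23. Pairs share libraries, some share a neighbour and genes are not independent replicates, so these values are descriptions. In 73 pairs both genes passed the test, and in 55 of those (75.3%) the direction was the same, against 62.2% of 4294 pairs of protein-coding genes. By distance, r was 0.57 up to 1000 bp (83 pairs), 0.46 over 1000 and up to 10000 bp (51 pairs) and -0.38 beyond (15 pairs). For protein-coding genes the same values were 0.39 (8043 pairs), 0.37 (2030 pairs) and 0.14 (438 pairs), so that they too were lowest beyond 10000 bp. For members that overlap a protein-coding gene, r was 0.28 (68 pairs) and 18 of 25 pairs with both called had the same direction. No background was computed for overlapping pairs.

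**Figure D5:**
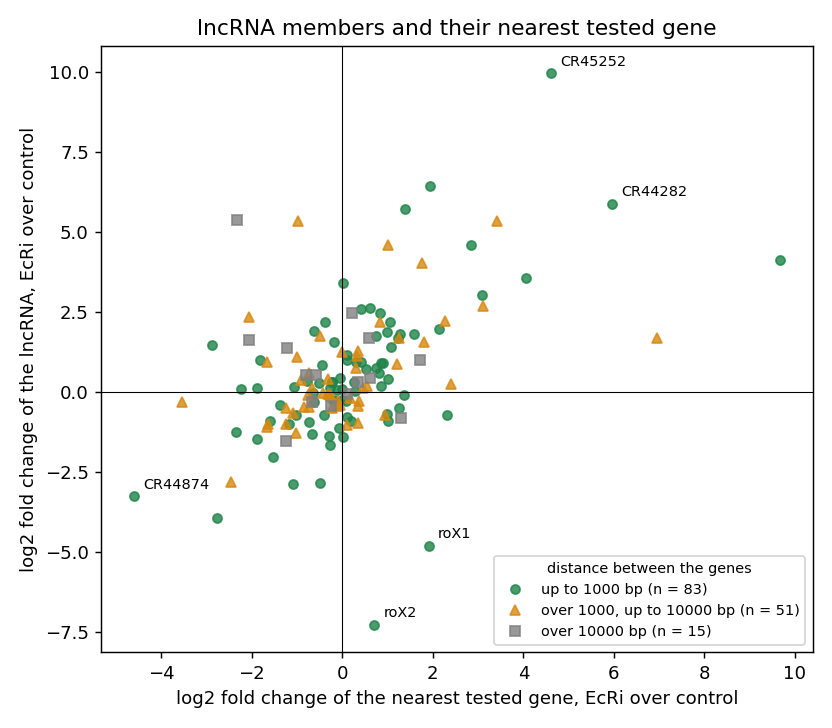
Log2 fold change of each tested member (vertical) against that of its nearest tested gene without overlap (horizontal), both EcRi over control, by the distance between the genes. CR45252 and CR44282 rose beside genes that rose, CR44874 fell beside a gene that fell, and roX1 and roX2 fell beside genes that were higher.

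Of 8 pairs of members within 10000 bp of each other, both passed the test in the same direction in 1 pair (CR45916 and CR44676) and in opposite directions in 1, a single member passed in 4 and neither in 2. The genes described next were chosen after their values were seen. CR44273 was at 1.86, 2.79 and 1.96 CPM in EcRi libraries, against 0.101, 0.331 and 0.120 CPM in control libraries (3.58, adjusted p = 0.000531 by edgeR), and CG13748, 459 bp away, rose as well (4.06). CR44274, 1000 bp from CR44273 on the same strand, was at 1.25, 1.82 and 1.42 CPM against 1.61, 1.30 and 1.67 CPM (-0.03, adjusted p = 0.925 by edgeR). CR44758 was lower (-1.0) and its neighbour CR44756, 2391 bp away on the other strand, higher (1.10). CR43641 was at 0.370, 0.646 and 0.484 CPM in EcRi libraries, against 0.0302, 0.0343 and 0.0190 CPM in control libraries (4.13), and the gene 453 bp from it, CR43642, just outside the 150, was at 0.446 ± 0.0895 CPM in EcRi (SD, n = 3) and at 0 counts in all control libraries.

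With TMM factors the 2 members at the limit did not share a call. CR44784 (chromosome 2R, 23383483 to 23384177) was at 0.316, 0.410 and 0.286 CPM in EcRi libraries, against 0.171, 0.206 and 0.158 CPM in control libraries (0.92, adjusted p = 0.0206 by edgeR), and CG30414, 23 bp away on the other strand, was higher by 0.90. The call of CR44784 was lost without EcRi replicate 2 (adjusted p = 0.0814), control replicate 1 (0.0629) or control replicate 3 (0.0593). CR43900 (chromosome 2R, 12259409 to 12260813), whose exons overlap those of the calmodulin gene Cam, did not pass the test (0.31, adjusted p = 0.363 by edgeR) but did without TMM factors (0.96, adjusted p = 0.0204), and Cam was lower (-0.83, and -0.18 with no call without TMM factors).

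Genes for RNA processing and decay, and genes of the ecdysone cascade, were counted from lists. The background for these counts was 30.1% higher and 29.3% lower over all tested entries, and 57.3% and 12.7% without TMM factors. Of 6 nonsense-mediated decay factors 2 were higher (Smg5 0.66, Smg6 0.68) and 0 lower, against 6 higher without TMM factors. Of 8 snoRNP proteins 1 was lower (NHP2 -0.57), against 1 higher and 0 lower without TMM factors. Of 5 genes listed for the nuclear exosome and RNA retention (Rrp6, Dis3, Rrp40, Mtr4 and Nup98-96) 1 was lower (Rrp40 -0.81). Without TMM factors 4 of these were higher and 0 lower. Of 7 somatic piRNA factors 2 were higher (piwi 1.15, SoYb 0.55) and 2 lower (fs(1)Yb -2.55, mael -1.01), against 5 and 1 without TMM factors. Of 11 genes of the ecdysone cascade 7 were higher and 2 lower, against 8 and 0 without TMM factors. Among the higher ones were the nuclear receptor Hr4 (4.42), br (1.27) and ftz-f1 (0.65), which the authors describe as repressed by ecdysone signalling. The lower ones were usp (-0.39) and Eip71CD (-0.85), the second of which the authors describe as induced by it. Eip74EF (0.04) and EcR did not pass the test.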

How the data were processed

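Intestinal RNA of 3 EcRi and 3 control libraries was sequenced by the authors, who trimmed reads with Trim Galore!, aligned them (HISAT2) and assigned them to genes (featureCounts) in Galaxy, with Ensembl (dm6) annotation. The labels name an RNeasy kit and a SMARTer mRNA-seq preparation, the methods TRIZOL. The values the authors deposited are raw counts, 1 column per library, for 24278 entries (6383 of them not genes). The annotation release, strand setting and treatment of reads shared between genes are not given in the sources used here. Symbols were found for 17855 of 17895 genes, and positions were taken from the Ensembl release 115 annotation of the same assembly.

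Counts were tested in R 4.3.3 with edgeR 4.0.16 (filterByExpr, TMM, robust quasi-likelihood test, Benjamini-Hochberg adjustment over all 12193 tested entries, threshold 0.05). The methods name limma-voom, which was run as an alternative (limma 3.58.1), as was DESeq2 1.42.0. The other alternatives were RLE factors, library totals without TMM, no filter, at least 10 counts in every library, genes alone, a replicate block, each library left out and an adjusted p below 0.01. Standard errors are the log2 fold change divided by the square root of F. An exact permutation test of 3 against 3 libraries cannot go below p = 0.1. Scripts were tested on simulated data. No sequences are shown.

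The members, gene lists and rules were chosen with earlier results of these data known. Named were members with a name of their own, the 5 most abundant, the 8 largest increases and decreases past the test without overlap of the genotypes, those at the limit, their overlapping or nearest genes, EcR and list members. Other genes were chosen after their values were seen, among them CR32368, CR40469, CR33938 and second neighbours.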

Additional observations from a re-analysis of the deposited data

Results flagged for a closer look

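CR33938 (chromosome 3R, 6699560 to 6700164) was the only member that failed the filter on low counts, and 1 library held nearly all of its counts. It was in no test above, but it entered the members' summed levels and the 46 genes that reached the limit only in EcRi. It had 1392 counts in EcRi replicate 1, 4 and 28 counts in EcRi replicates 2 and 3, and 0 counts in all control libraries. Over the groups this was at least 300.2-fold higher in EcRi, set against a floor of 3 counts over the control group, but the value rests on replicate 1. The cuticle protein genes nearest to it showed a like unevenness. Ccp84Ab, 1804 bp away, was at 1.10, 0.00646 and 0.251 CPM in EcRi libraries and at 0 in control libraries, and Ccp84Ac at 0.633, 0.187 and 0.0975 CPM against 0. The cuticle pigment gene y was at 1.67, 0.171 and 0.111 CPM in EcRi libraries, against 0.0202, 0.0228 and 0.0253 CPM in control libraries. Whether tissue that makes cuticle was carried into EcRi replicate 1 was not tested.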

How the results depend on the processing

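Scaling was the choice that mattered most. By library totals without TMM factors, 93 members were higher and 13 lower, 6982 and 1546 of all entries were, and the members' median log2 fold change was 0.91. With at least 10 counts in every library that median was 0.18. Over the other settings the counts of members were 51 to 63 higher and 28 to 36 lower. When single libraries were left out they were 53 to 60 and 29 to 34, those of all entries 3278 to 3486 and 3215 to 3416, and the median 0.19 to 0.31. Set against overlapping in place of nearest genes, r was 0.28. Replicate numbers did not pair the libraries, since same-numbered libraries deviated with r of -0.06, 0.04 and -0.06, and the fit with a replicate block called 61 members higher and 32 lower. Of 663 values for 48 named genes, 640 kept direction and call, 9 lost their call, 2 gained one and 12 turned. By library totals Hsromega turned to 0.57, CR34335 to 0.59, Ctps to 0.61, Tmem43 to 0.27 and EcR to 0.47. With at least 10 counts in every library CR34335 turned to 0.00101 and Ctps to 0.019. With single libraries left out, CR34335 ran from -0.21 to 0.073 and Ctps from -0.15 to 0.072, each positive without EcRi replicate 3 or control replicate 2, and EcR from -0.30 to 0.10. At this depth 3 counts corresponded to 0.0122 to 0.0149 CPM by library totals, and TMM factors shift that floor in each library.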
